A study of Solanum lycopersicum with 2 samples.

Results

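In 56 tomato gene models, a larger part of the 3' end reads lay in a single peak in the heat-stress library than in the control library. The peak share is the height of a model's highest peak of reads divided by all reads of the model. Below, reads in the peak means this height, and reads outside the peak means all reads of the model less this height. How the height is counted is not stated, so it need not be a count of the model's own reads. The 56 models are those whose share in the heat-stress library exceeded that in the control library by at least 10 percentage points. They were taken from 8945 models that had at least 100 reads in each library and no peak above their own reads in either (0.626% of the models compared). The members were chosen by the peak share and the reads of these same libraries, so all values of share, reads and level below are a description.

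Both libraries came from young leaves of tomato (Solanum lycopersicum) cultivar Moneymaker, taken from plants 8 weeks old and grown in a glasshouse with 16 h days at 24°C and 8 h nights at 20°C. Heat-stressed plants spent 1 h at 39°C in a growth chamber with light of 120 μmol m-2 s-1 and then 1.5 h at 24°C. Control plants were of the same age and cultivar, and the labels do not say whether they too were moved to a chamber. There was 1 library per condition, so no difference has a replicate check, and how many plants each library pools is not stated.

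An mRNA is cut and given its poly-A tail at a site near its end, and many plant genes carry more than one such site. Use of another site changes the length of the 3' untranslated region, or the end of the coding region, and with it the sequences that bear on stability, location and translation of the message. In massive analysis of cDNA ends (MACE) only the 3' end part of each transcript is read, here the last 500 bp. The way reads pile up along a model thus depends in part on where its transcripts end. A higher peak share is read here as reads more concentrated at 1 place in the model. With 1 library per condition, a difference in share cannot be told apart from a difference between the library preparations. The files give the height of the highest peak but not its position, so whether the peak lay at the same place in both libraries cannot be told apart from a move to another place.

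Mapped reads numbered 13857252 in the heat-stress library and 11534512 in the control library. Levels are in RPM (reads per 1000000 mapped reads), and 1 read was worth 0.0722 RPM in the heat-stress library and 0.0867 RPM in the control library. The models carry Solyc identifiers with no gene names, and the reference table, with 41476 genes, matched 0 of them. No function could be given to any of the 56, no pathway could be counted among them, and the leaf label could not be checked against marker genes. The members are therefore described by chromosome, strand, reads and neighbours. Rank means the order of the difference in share, with 1 the largest.

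The median share of the 56 models was 55.5% in the heat-stress library (lowest 22.8%, highest 98.8%), against 40.9% in the control library (lowest 12.4%, highest 83.8%). Over all 8945 models the median was 24.7% in the heat-stress library and 25.4% in the control library. Against all models, members had high shares in the control library already, though members of identifier version 1, described below, did not against their own version. In the control library 18 of 56 had at least 50% of reads in the highest peak (32.1%). Over all 8945 models 452 did (5.05%). Of the 110 models with a share at least 10 points lower in the heat-stress library, 59 did (53.6%). The control share is part of the rule, so nothing is read from these contrasts. In the heat-stress library 37 of the 56 did (66.1%), against 417 of all models (4.66%). The difference within the 56 models ran from 10.04 to 24.6 points, with a median of 12.1 points and quartiles of 10.96 and 15.7. Over all models compared, the median difference was -0.57 points, with quartiles of -2.43 and 1.16.

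Because the members were chosen by this difference, its counting intervals describe its precision and support nothing about it. The 95% Newcombe interval of the difference lay above 0 in 46 of the 56 models and included 0 in 10. Over all models compared, 1.61% had an interval above 0 and 3.78% had one below 0. The 10 members whose interval included 0 had at most 182 reads in the heat-stress library, at most 155 reads in the control library, and differences of at most 11.7 points. The interval lay wholly above 10 points in 4 members, at ranks 1, 14, 15 and 17, and in 0.0447% of all models compared. By a stricter reading, in which the exact intervals of the 2 shares do not overlap, 23 members remained (0.525% of all models compared were higher in this way). These intervals cover counting error only, and they treat the highest peak as a fixed place although it was picked as the highest. They also treat the peak height as a count of the model's own reads. In the opposite direction 110 models (1.23%) had a share at least 10 points lower in the heat-stress library, and 88 of these had an interval below 0.

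**Figure D1:**
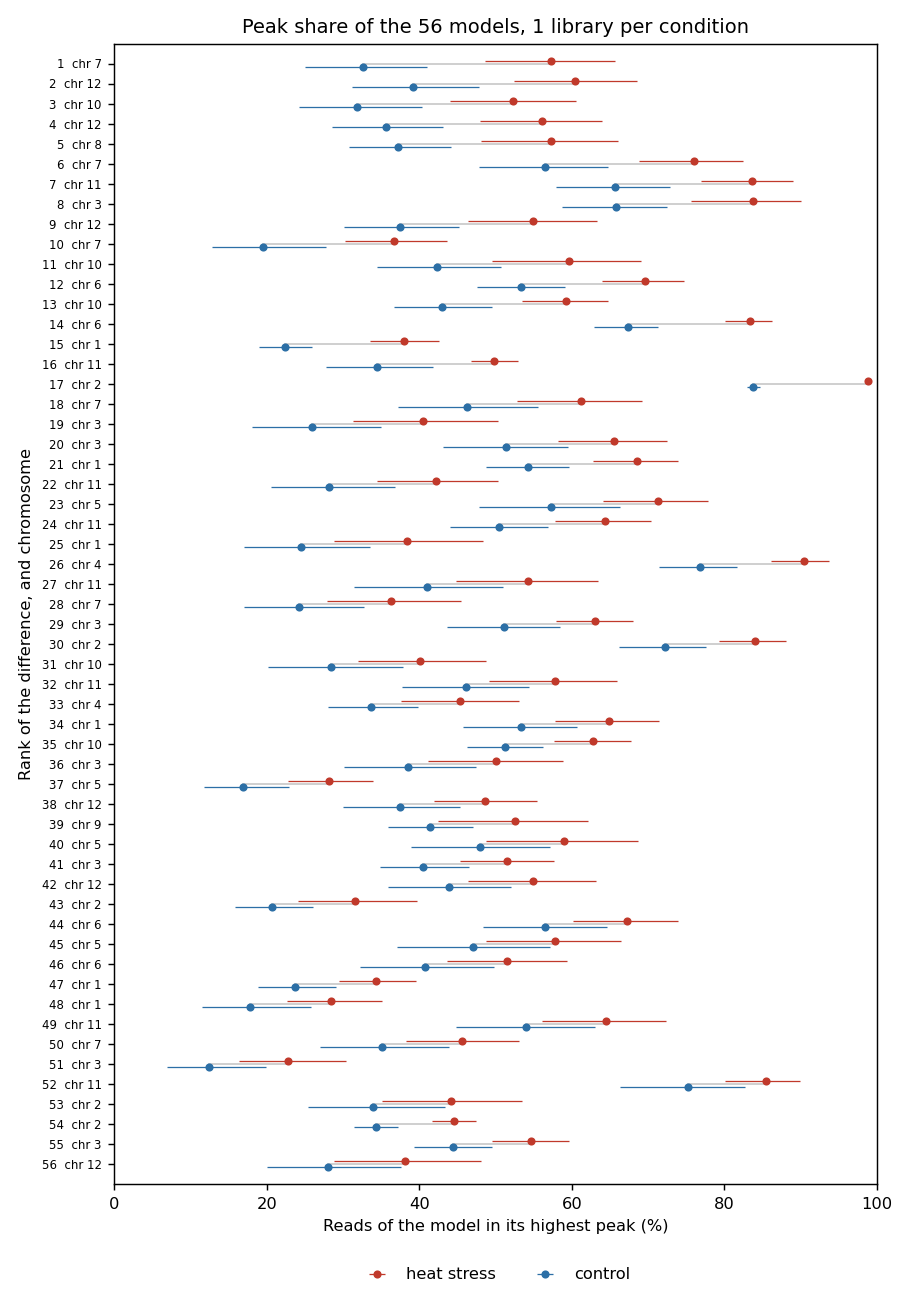
Peak share of each of the 56 models, in percent of the model's reads, in the heat-stress library (red) and the control library (blue), ordered down the page by the difference. Points are the 2 libraries and bars are 95% exact Clopper-Pearson intervals of counting error. The exact intervals are apart in 23 models, and the chromosome 2 model at rank 17 has the narrowest bars.

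The largest difference was in Solyc07g006070.1, on the Watson strand of chromosome 7. Its highest peak held 79 of 138 reads in the heat-stress library and 47 of 144 in the control library. That gave a share of 57.2% in the heat-stress library (48.5% to 65.6%) and 32.6% in the control library (25.1% to 40.9%), a difference of 24.6 points (13.03 to 35.3). The total level of the model did not differ beyond counting error. Solyc12g006450.1, on the Crick strand of chromosome 12, was next. Its highest peak held 91 of 150.5 reads in the heat-stress library and 55 of 140.5 in the control library, and the fractions show that part of its reads was divided with other locations. The share was 60.5% in the heat-stress library (52.4% to 68.5%) and 39.1% in the control library (31.1% to 47.9%), a difference of 21.3 points (9.88 to 32.1). In both models the control share was above the median of all models and the heat-stress share was past 50%. Both identifiers end in version digit 1, a class described below. Their control shares lay under the 44.7% control median of that class.

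Among members with a higher level in the heat-stress library, the largest difference was in Solyc07g020710.2 on the Watson strand of chromosome 7. Its peak held 79 of 215 reads in the heat-stress library and 23 of 118 in the control library. Its share was 36.7% in the heat-stress library (30.3% to 43.6%) and 19.5% in the control library (12.8% to 27.8%), a difference of 17.3 points (7.11 to 26.3). This model started from a share under the median of all models, unlike the first 2. Like them it started under the control median of its own version, 24.7% for version 2. Solyc10g081090.1, on the Watson strand of chromosome 10, had 180 of 304 reads in its peak in the heat-stress library and 105 of 244 in the control library. Its share was 59.2% in the heat-stress library (53.5% to 64.8%) and 43.03% in the control library (36.7% to 49.5%), a difference of 16.2 points (7.76 to 24.3). Its total level hardly differed, at 21.9 RPM in the heat-stress library and 21.2 RPM in the control library, and its log2 ratio of level turned from 0.05 to -0.06 when the libraries were scaled to a median ratio of 1.

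The other members with differences near 20 points were also weakly covered. The chromosome 10 model at rank 3 had 78 of 149 reads in its peak in the heat-stress library and 44 of 138.5 in the control library. The chromosome 12 model at rank 4 had 88 of 157 reads in its peak in the heat-stress library, against 63 of 177 in the control library. The chromosome 8 model at rank 5 had 71 of 124 reads in the heat-stress library and 79 of 212 in the control library. In RPM its peak was 0.748 times the control value (0.535 to 1.04) and the reads outside it 0.332 times (0.237 to 0.459). In the chromosome 7 model at rank 6, the peak had 124 of 163 reads in the heat-stress library and 79 of 140 in the control library. At rank 7, on chromosome 11, the peak had 133 of 159 reads in the heat-stress library and 109 of 166 in the control library. These last 2 had most of their reads in 1 peak in both libraries.

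The members with the most reads over both libraries come next, and rank 16 has the widest interval of the difference among those given. The chromosome 2 model at rank 17 had 5269.5 of 5334.5 reads in its peak in the heat-stress library, or 98.8%, and 5879 of 7015 reads in the control library, or 83.8%. Its difference was 14.98 points (14.1 to 15.9). Its reads exceeded the peak height by only 65 in the heat-stress library, against 1136 in the control library. Its peak had the same height as that of the adjacent model on the same strand, in both libraries. To which of them the peak belongs cannot be told, so the share and its interval need not describe this model's own reads. That neighbour had 22149 reads in the heat-stress library and 25066 in the control library, with a share of 23.8% in the heat-stress library and 23.5% in the control library. The neighbour's share was thus nearly level while the member's was not.

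The chromosome 6 model at rank 14, on the Crick strand, had 480 of 576 reads in its peak in the heat-stress library and 339 of 503.5 in the control library. Its peak share came to 83.3% in the heat-stress library (80.0% to 86.3%) and 67.3% in the control library (63.0% to 71.3%), a difference of 16.0 points (10.9 to 21.1). It had no neighbour with the same peak height. The chromosome 2 model at rank 54, on the Watson strand, had 524.5 of 1177 reads in its peak in the heat-stress library and 368.8 of 1075 in the control library. Its difference was 10.2 points (6.16 to 14.2). The chromosome 11 model at rank 16 had 515 of 1034 reads in its peak in the heat-stress library, against 65 of 188.5 in the control library. Its share was 49.8% in the heat-stress library (46.7% to 52.9%) and 34.5% in the control library (27.8% to 41.8%). The difference was 15.3 points (7.56 to 22.3), with few reads in the control library.

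**Figure D2:**
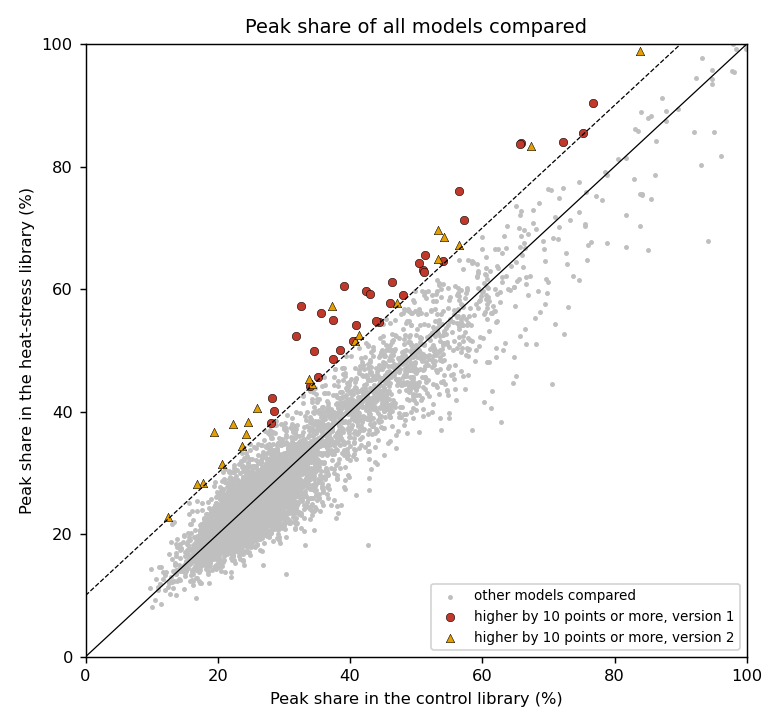
Peak share of the 8945 models compared, in percent, in the control library (x axis) and the heat-stress library (y axis). Grey points are models outside the group, coloured points are the 56 members by the version digit of their identifier, the solid line marks equal shares and the dashed line a share 10 points higher in the heat-stress library. Most models lie near the medians of 24.7% in the heat-stress library and 25.4% in the control library, and the members spread from 12.4% to 83.8% in the control library.

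A higher share can come from a greater peak height, a smaller remainder of reads outside the peak, or both. The deposited values give these parts for each model, the remainder being all reads less the peak height. How a peak is bounded is not stated, so reads beside its highest point may count as outside. In RPM, 39 of the 56 members had more reads in the peak and fewer outside it in the heat-stress library, 13 had fewer of both, and 4 had more of both. Over all models compared, 6.26% had more in the peak and fewer outside, 33.9% had fewer of both and 47.9% had more of both. Since the rule itself favours the first pattern, nothing is read from that contrast. The median ratio of heat-stress to control RPM was 1.17 for the peak and 0.671 for the reads outside it. Over all models compared these medians were 1.03 and 1.07. In the middle of the group the deficit outside the peak was thus the larger side, which describes the chosen members only.

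Counting intervals of the 2 parts come from the same selected values, so they add no separate evidence. The interval of the RPM ratio outside the peak lay below 1 in 35 of 56 members (20.8% of all models), while that of the peak lay above 1 in 16 (18.6%). Both held in 4 members, at ranks 3, 13, 14 and 54, and in 0.0559% of all models, or 5 models. At rank 14 the peak ratio was 1.18 (1.02 to 1.36) and the ratio outside the peak was 0.486 (0.373 to 0.627). In the rank 13 model, Solyc10g081090.1, the peak ratio was 1.43 (1.12 to 1.83) and the ratio outside the peak 0.743 (0.578 to 0.953). These 2 models differ in balance, the first mostly short of reads outside the peak and the second with both sides of similar size.

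Summed over the 56 members, the peaks held 891 RPM in the heat-stress library and 932 RPM in the control library, and the reads outside them 416 RPM in the heat-stress library and 675 RPM in the control library. These sums lean on the chromosome 2 model at rank 17, whose peak height is also that of its neighbour. Without it the peaks held 511 RPM in the heat-stress library and 422 RPM in the control library, and the rest 411 RPM in the heat-stress library against 576 RPM in the control library.

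The 13 members with fewer reads on both sides had peak ratios from 0.353 to 0.990 and ratios outside the peak from 0.0476 to 0.635. The chromosome 3 model at rank 8 had 93 peak reads and 18 reads outside it in the heat-stress library, against 127 and 66 in the control library. Its peak ratio was 0.610 (0.461 to 0.803) and its ratio outside the peak 0.227 (0.127 to 0.387). In the chromosome 4 model at rank 26 the peak held 235 of 260 reads in the heat-stress library and 215 of 280 in the control library, with a peak ratio of 0.910 (0.753 to 1.10) and a ratio outside the peak of 0.320 (0.193 to 0.515). In the second of these only the reads outside the peak differed beyond counting error.

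All 4 members with more reads on both sides had at least 2.01 times the control RPM in the peak. The chromosome 11 model at rank 16 had a peak ratio of 6.60 (5.09 to 8.67) and a ratio outside the peak of 3.496 (2.88 to 4.31). The chromosome 3 model at rank 29 had a peak ratio of 2.01 (1.57 to 2.58) and a ratio outside the peak of 1.23 (0.932 to 1.62). Solyc07g020710.2 had a peak ratio of 2.86 (1.78 to 4.77) and a ratio outside the peak of 1.19 (0.910 to 1.57). The fourth, on chromosome 1 at rank 48, had 61.6 peak reads among 217 in the heat-stress library and 22 among 123 in the control library, with fractional reads in both.

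**Figure D3:**
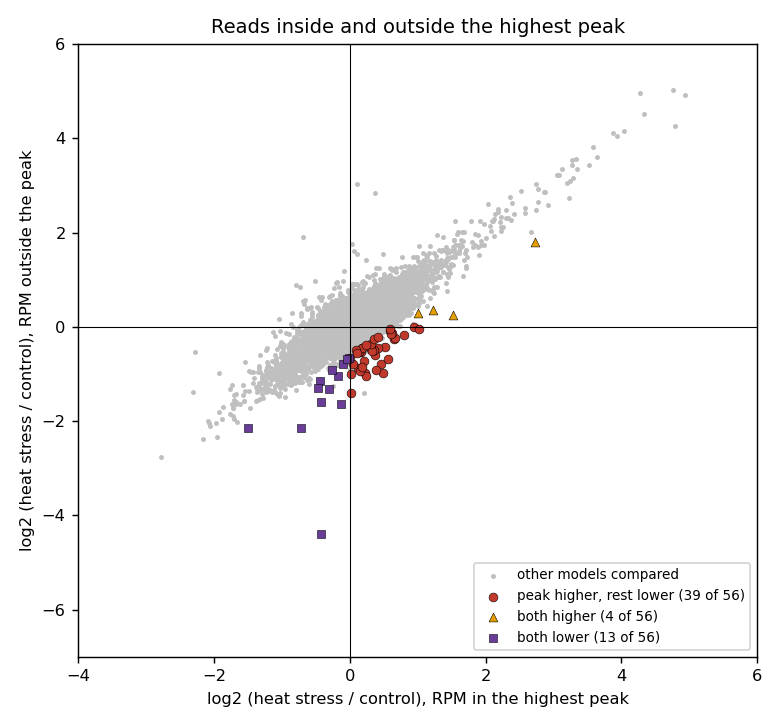
Log2 ratio of heat-stress to control RPM inside the highest peak (x axis) and outside it (y axis), for all models compared (grey) and the 56 members (coloured by pattern), with 2 models that have no reads outside the peak in a library not drawn. Most members lie right of the vertical line and below the horizontal one, and the lowest square is the chromosome 2 model with a ratio of 0.0476 outside the peak.

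The level of the whole model differed little in most members. Level is given in RPM, and its log2 ratio as log2((heat-stress RPM + 1)/(control RPM + 1)). The median level was 11.8 RPM in the heat-stress library and 13.3 RPM in the control library, and the median log2 ratio was -0.17 (quartiles -0.36 and 0.06), against 0.08 over all models compared. The RPM was lower under heat stress in 37 of 56 members and in 41.5% of all models. At least 2-fold higher was 1 member (3.01% of all models) and at least 2-fold lower were 2 (1.50% of all models). The counting interval of the RPM ratio lay below 1 in 21 members (23.4% of all models), above 1 in 5 (35.9% of all models), and included 1 in the other 30. In leaf RNA, fewer cells of a type and less RNA per cell cannot be told apart.

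The 1 member at least 2-fold higher was the chromosome 11 model at rank 16, with 74.6 RPM in the heat-stress library and 16.3 RPM in the control library. Its ratio was 4.56 (3.92 to 5.38). The 2 members at least 2-fold lower were on chromosomes 9 and 2. The chromosome 9 model, at rank 39, had 7.70 RPM in the heat-stress library and 27.7 RPM in the control library, a ratio of 0.278 (0.222 to 0.349). The chromosome 2 model, at rank 43, had 10.5 RPM in the heat-stress library and 22.3 RPM in the control library, a ratio of 0.473 (0.383 to 0.582). The members at ranks 5 and 8 had plain RPM ratios of 0.487 and 0.479, and missed the call through the pseudocount of 1 RPM alone, with log2 ratios of -0.96 and -0.98. By the plain ratio 4 members were at least 2-fold lower (1.72% of all models) and 1 was at least 2-fold higher (3.21% of all models). Solyc07g006070.1 had 9.96 RPM in the heat-stress library and 12.5 RPM in the control library, a ratio of 0.798 (0.627 to 1.01) that counting error does not separate from 1. Solyc12g006450.1 likewise had 10.9 RPM in the heat-stress library and 12.2 RPM in the control library, with a ratio of 0.892 (0.704 to 1.13). Solyc07g020710.2 had 15.5 RPM in the heat-stress library and 10.2 RPM in the control library, with a ratio of 1.52 (1.21 to 1.91).

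Members were thinly covered models. Of the 56, 36 had a mean under 200 reads over both libraries (64.3%), against 23.2% of all models compared, and 2 had a mean of at least 1000 reads (3.57%), against 18.1%. The share of models that were members was 1.73% under 200 mean reads, 0.418% from 200 to under 500, 0.181% from 500 to under 1000 and 0.123% from 1000 upward. The models with a share at least 10 points lower in the heat-stress library followed the same course, at 3.56%, 0.808%, 0.302% and 0.123%. Counting noise in a share is also widest at low reads, and its part in these numbers was not tested. With at least 200 reads required in each library 14 members remained, and with at least 500 there were 3.

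Members also differed from the other models in the digit that ends the identifier, the version. Version 1 was carried by 34 of the 56 members (60.7%, 95% exact interval 46.8% to 73.5%), against 13.8% of all models compared. Models of version 1 had high shares whatever their difference. The median over 1238 of them was 43.6% in the heat-stress library and 44.7% in the control library. Over 7707 models of version 2 the median was 24% in the heat-stress library and 24.7% in the control library. Among the version 1 models 2.75% were members (1.91% to 3.82%), and among the version 2 models 0.285% (0.179% to 0.432%). The models that had lower shares in the heat-stress library showed the same lean, with 59 of 110 of version 1 (53.6%). Among models under 200 mean reads, 25 of 450 version 1 models were members (5.56%), against 11 of 1629 version 2 models (0.675%). Version also went with the control share. Under a control share of 30%, 0.190% of 6860 models were members, 0.0437% had lower shares and 1.40% were of version 1. From 50% to under 60%, 3.99% of 276 models were members, 8.33% had lower shares and 89.5% were of version 1. How the 3' ends of the versions differ is not stated, and the parts of the version and of the control share in the result were not tested.

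**Figure D4:**
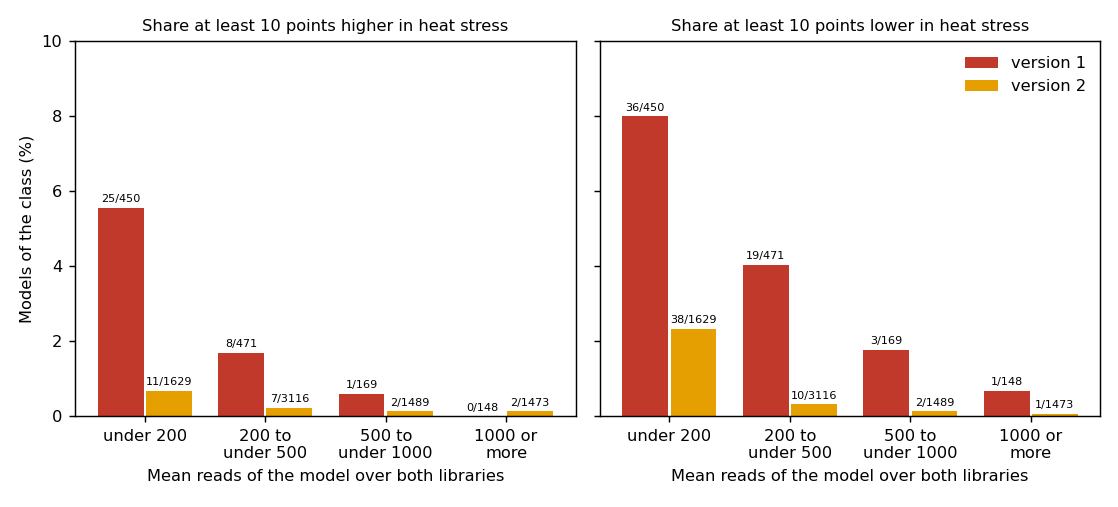
Percent of models whose peak share was at least 10 points higher (left) or lower (right) in the heat-stress library, by mean reads of the model over both libraries and by version digit, with the number of models above each bar. Percentages are highest under 200 mean reads in both panels, and version 1 bars stand above version 2 bars except at 1000 or more reads in the left panel, where 0 of 148 version 1 models and 2 of 1473 version 2 models were members.

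The median share of the 22 version 2 members was 44.9% in the heat-stress library and 34.0% in the control library, above the upper quartile of all version 2 models in each library (26.7% in the heat-stress library and 27.5% in the control library). The 34 version 1 members had a median of 58.4% in the heat-stress library and 43.5% in the control library. Their control median was close to the 44.7% of all version 1 models. The chromosome 3 model at rank 51, of version 2, had the lowest shares of the group, with 34 of 149 reads in its peak in the heat-stress library (22.8%) and 14 of 113 in the control library (12.4%).

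Members lay on all 12 chromosomes. Chromosome 11 had 8 among 285 models (2.81%), chromosome 12 had 6 among 287 (2.09%) and chromosome 10 had 5 among 395 (1.27%), while chromosomes 1 to 9 had between 0.139% and 0.821%. All 19 members of chromosomes 10 to 12 were of version 1, the version of 772 of the 967 models compared there. Within version 1 the share was 2.46% on chromosomes 10 to 12 and 3.25% on chromosomes 1 to 9, so the higher values of these 3 chromosomes were not seen within the version. Of the 56 members 27 were on the Watson strand and 29 on the Crick strand (48.2% Watson, interval 34.7% to 62.0%), against 51.2% Watson over all models. No 2 members were within 10 places of each other in identifier order, the closest pair being 11 places apart.

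Neighbours were read from the identifiers, which number the models along a chromosome, with the Watson strand taken to run in that order. Only models listed in either library could be neighbours, so a model listed in neither was passed over. The 3' side neighbour carried the next number, 10 away, for 44 of 56 members (78.6%), against 84.5% of all models. For the other members it need not be the adjacent gene. A transcript that runs past its end would meet the neighbour on its 3' side. That neighbour was on the same strand in 33 of 56 members (58.9%, interval 45.0% to 71.9%), against 50.4% of all models compared. It had fewer than 10 reads in both libraries for 15 members (26.8%), against 23.6% of all models, and more reads than the member itself in both libraries for 14, against 19.0% of all models. Each interval of the members holds the value over all models, so no lean in strand or in neighbouring reads was detectable with 56 members.

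The level of these neighbours also differed little between libraries. The median log2 ratio of the 3' side neighbour was 0.02, with a range from -1.01 to 1.58, against a median of 0.07 over all models. It was at least 2-fold higher or lower in 3 of 56 members (3.98% of all models), and either neighbour was in 6 (7.23%). The widest of these followed the chromosome 7 member at rank 6. That neighbour, on the same strand, had 1728.5 reads in the heat-stress library and 473 in the control library, a log2 ratio of 1.58. Its identifier number was 30 away, so it need not be the adjacent gene. That member itself was at 11.8 RPM in the heat-stress library and 12.1 RPM in the control library, a ratio of 0.969 (0.768 to 1.22).

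Where a nearby model has the same peak height in both libraries, the 2 peaks cannot be told apart. Such a model within 10 places was found for 3 of the 56 members (5.36%, interval 1.12% to 14.9%), against 0.548% of all models compared, at ranks 15, 17 and 47. All 3 of the nearby models were on the same strand as the member. For the chromosome 1 member at rank 15, the peak of 175 reads in the heat-stress library and 132 in the control library was also that of a model 3 places away. The member had 461 reads in the heat-stress library and 591 in the control library, while the other model had 784 in the heat-stress library and 500 in the control library. Its own share was 37.9% in the heat-stress library and 22.3% in the control library, while the other model had 22.3% in the heat-stress library and 26.4% in the control library. The shares of the pair thus differed in opposite directions at equal peak height.

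For the chromosome 1 member at rank 47, the peak of 122 reads in the heat-stress library and 67 in the control library was also that of the adjacent model. The member had 355 reads in the heat-stress library and 283 in the control library, and the adjacent model 436 in the heat-stress library and 273 in the control library. In that model the peak share was 28.0% in the heat-stress library and 24.5% in the control library. Of the 4 members whose interval lay above 10 points, those at ranks 15 and 17 are of this kind, and those at ranks 1 and 14 are not. Without all 3 there were 53 members. Fractional reads in either library (over 1e-06 from a whole number), which show reads divided between locations, were found in 16 of the 56 members (28.6%), close to the 29.4% of all models.

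The threshold falls in a continuous range of values. The last 3 members had differences of 10.2, 10.2 and 10.04 points, on chromosomes 2, 3 and 12. The next 3 models, just short of it, had 9.90, 9.83 and 9.77 points, on chromosomes 6, 6 and 12. The last member had 40 of 105 reads in its peak in the heat-stress library and 31 of 110.5 in the control library, with an interval from -2.64 to 22.1 points. The first model outside had 188 of 315 reads in its peak in the heat-stress library and 116 of 233 in the control library, with an interval from 1.48 to 18.2 points.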

How the data were processed

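The authors made 3' end cDNA (MACE) libraries from poly-A RNA, and FastQC is the one tool the submitters' processing notes name. The sources used here do not give the aligner, build, annotation, counting strand or peak definition. Per the file headers, the authors deposited for each model an estimated count of reads, with no normalization and fractional where reads were divided, and the count of all mapped reads of its library. The column headed TPM equalled reads per 1000000 mapped reads (largest difference 3.42e-08), so the deposited unit is RPM. The deposited peak height is a signal in reads.

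Python 3.11.15, pandas 2.3.3 and scipy 1.17.1 were used. Both files were joined on the identifier (21726 models in both). Of 8956 models with at least 100 reads in each, 11 with a peak above their reads were left out. Shares have exact Clopper-Pearson intervals, differences of shares Newcombe intervals and RPM ratios conditional exact intervals, all at 95% on rounded reads and for counting error only. With 1 library per group no test was possible. Models named by identifier are the 2 with the largest difference among members with a higher RPM in the heat-stress library and the 2 among those with a lower RPM. The calculation was tested on simulated data. Members, lists and thresholds were chosen with earlier results of these data known.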

Additional observations from a re-analysis of the deposited data

How the results depend on the processing

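The count of 56 models depended on its thresholds. It was 186, 14 and 3 with at least 50, 200 and 500 reads in each library, 411, 16 and 4 with a difference of at least 5, 15 and 20 points, and 19 with a ratio of shares of at least 1.5. It stayed within 1.5 times with whole-number reads alone (40), with peaks above reads kept (57) and without shared peak heights (53). Version 2 models alone gave 22 and version 1 models alone 34, a split added after seeing the data. The 46 of 56 intervals above 0 became 14 of the 14 members with 200 reads, and 23 of 56 with exact bounds that do not overlap. The 1 member at least 2-fold higher was absent (0) with 200 reads, whole-number reads or version 2 alone. The 2 members at least 2-fold lower became 4 with a pseudocount of 0.1 RPM or median ratio scaling, 1 with a pseudocount of 5 RPM, gene-model scaling or whole-number reads, and 0 with 200 reads. The 39 of 56 members with more peak reads and fewer outside were 9 of the 14 members with 200 reads. They were 33 of 56 with median ratio scaling and 4 of 56 by counting intervals, the last added after seeing the data. The median log2 ratio ran from -0.27 to -0.13. The median ratio scaling lowers heat-stress values by 0.11 on the log2 scale. No paired analysis was possible because there was a single library for each condition. The 10 members whose interval of the difference included 0 had at most 182 reads in the heat-stress library and 155 in the control library, and the spread between libraries is unknown.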
